A study of Mus musculus with 38 samples.

Results

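Neurokinin B and its receptor Tacr3 were followed here together with the genes around them in the control of reproduction. The set had 10 members: the tachykinin receptors Tacr3 and Tacr1, the tachykinin precursors Tac1 and Tac2, Kiss1 and its receptor Kiss1r, Gnrh1, the steroid receptors Esr1 and Pgr, and the prolactin receptor Prlr. Tacr3 was chosen by its measured log2 intensities, which were lower in 79Q mice and in BACHD mice at both ages on these same arrays, so its values are a description and carry no test. The other members were chosen as its ligand, its relatives and its partners. For each gene the array's probe set with a single gene symbol and the highest mean was taken, out of 19937 genes named in this way, and 9 of the 10 members had such a probe set. Prlr was not analysed here because no probe set was named for it alone.

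The samples were hypothalami of 38 female FVB/N mice, measured on 1 Affymetrix Mouse Gene ST 1.0 array each. In the AAV experiment, wild-type mice received at 8 weeks of age a hypothalamic injection of a serotype 5 adeno-associated viral vector, in which the human Synapsin-1 promoter drives an 853 amino acid fragment of human huntingtin (HTT) in neurons. The fragment carried 79 glutamines (79Q, mutant HTT, n = 8) or 18 (18Q, normal HTT, n = 5), and both groups were collected at 12 weeks of age, 4 weeks after injection, beside uninjected wild-type mice of that age (WT, n = 5). No group received a vector without HTT, so injection and HTT cannot be told apart in the comparisons with WT. BACHD mice carry full-length human mutant HTT with 97 CAG repeats in all tissues and were compared with WT littermates at 2 months (n = 6 and n = 6) and at 10 months (n = 5 and n = 3). The stage of the estrous cycle is not given in the sources used here.

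Neurokinin B, the peptide made from Tac2 in mice, binds the receptor NK3R encoded by Tacr3, which signals through Gq proteins and phospholipase C. In the arcuate nucleus of the hypothalamus, the KNDy neurons make kisspeptin, neurokinin B and dynorphin, act on each other through NK3R, and drive the pulsed release of gonadotropin-releasing hormone (GnRH). Inactivating mutations of the human counterparts of Tac2 and Tacr3, and of Kiss1r, cause a failure of puberty known as hypogonadotropic hypogonadism. NK3R is also made by hypothalamic neurons outside this circuit, such as the magnocellular neurons of the rat.

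Tacr3 lies on mouse chromosome 3. The window around its annotated start site (RefSeq, build GRCm38.p6, chr3:134828757-134829056, plus strand, 250 bases before to 50 bases after the start) is shown because Tacr3 is the member whose level differed in both models, with a TATA box and a CGTCA match in capitals.
Tacr3 promoter: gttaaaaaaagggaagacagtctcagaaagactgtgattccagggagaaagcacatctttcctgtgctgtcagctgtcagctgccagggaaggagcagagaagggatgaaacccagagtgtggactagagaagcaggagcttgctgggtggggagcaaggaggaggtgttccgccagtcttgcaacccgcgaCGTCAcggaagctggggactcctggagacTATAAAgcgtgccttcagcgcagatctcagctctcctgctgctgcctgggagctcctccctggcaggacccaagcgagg

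The letters TATAAA stood at position -29 from the start site, and 13.6% of 32851 mouse promoter windows of the same length held them on either strand. CGTCA, the core of the cyclic AMP response element, stood at position -58, and 20.8% of the windows held it. The full palindrome TGACGTCA, which contains CGTCA, was not in the window (1.79% of windows held it). GGTCA, the core of the estrogen response element, was not there either (40.5% of windows). These matches describe the letters of this window only.

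Tacr3 was lower in the hypothalamus of 79Q mice than in that of WT mice, with no overlap between the groups. On the 8 arrays of 79Q its log2 intensity was 8.48, 8.48, 8.63, 8.64, 8.47, 8.55, 8.25 and 8.45, against 8.91, 9.04, 8.91, 8.93 and 8.95 on the 5 arrays of WT. All 8 arrays of 79Q lay below the lowest WT array. The mean was 8.49 ± 0.12 in 79Q and 8.95 ± 0.06 in WT (SD), a log2 fold change of -0.45 (SE 0.063, 95% CI -0.59 to -0.32), or 73.0% of the WT intensity. Over all 34760 probe sets, 0.938% had every 79Q array below every WT array, and nothing about Tacr3 is read from this since the contrast was used to choose it.

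18Q mice had intermediate values. Tacr3 measured 8.61, 8.80, 8.91, 8.59 and 8.76 on the 5 arrays of 18Q, against the WT values given above, and 4 of the 5 were below the lowest WT array. The mean of 8.74 ± 0.13 in 18Q gave a log2 fold change of -0.21 against WT (SE 0.070, 95% CI -0.36 to -0.06), or 86.4% of the WT intensity. Between the injected groups Tacr3 was lower in 79Q than in 18Q, by a log2 fold change of -0.24 (SE 0.063, 95% CI -0.38 to -0.11), and 6 of 8 arrays of 79Q lay below the lowest array of 18Q. The comparisons of 79Q and of 18Q with WT share the same 5 WT arrays.

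In BACHD mice at 2 months, Tacr3 measured 8.52, 8.35, 8.31, 8.54, 8.45 and 8.42, against 8.91, 9.03, 8.73, 8.94, 8.51 and 8.86 in WT littermates. The groups overlapped through a single WT array (replicate 5, at 8.51), and 4 of 6 BACHD arrays were below it. The mean was 8.43 ± 0.09 in BACHD and 8.83 ± 0.19 in WT (SD), a log2 fold change of -0.40 (SE 0.084, 95% CI -0.58 to -0.22), or 76.0% of the WT intensity. That WT array also had the highest summed level of pituitary markers among the arrays of this age (14.92 on the log2 scale, against 9.65 to 13.37 in BACHD and 10.14 to 11.29 on the other WT arrays). Leaving out each array in turn gave a log2 fold change of Tacr3 from -0.46 (without this WT array) to -0.36. With the pituitary level as a covariate over all arrays it was -0.41. The part of pituitary tissue in the overlap was not tested. The study's qRT-PCR at this age reported Tacr3 significantly lower in BACHD than in WT.

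At 10 months Tacr3 measured 8.60, 8.66, 8.30, 8.76 and 8.70 in BACHD mice, against 9.37, 9.06 and 9.19 in WT mice. All 5 BACHD arrays were below the lowest of the 3 WT arrays. The mean was 8.60 ± 0.18 in BACHD and 9.21 ± 0.15 in WT (SD), a log2 fold change of -0.60 (SE 0.11, 95% CI -0.86 to -0.35), or 65.9% of the WT intensity. Of all probe sets, 1.56% separated the groups in this direction. The difference between the genotype effects at 10 and at 2 months was -0.20 (SE 0.14, 95% CI -0.50 to 0.09). Nothing about age is read from this, since both effects were used to choose Tacr3.

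**Figure D1:**
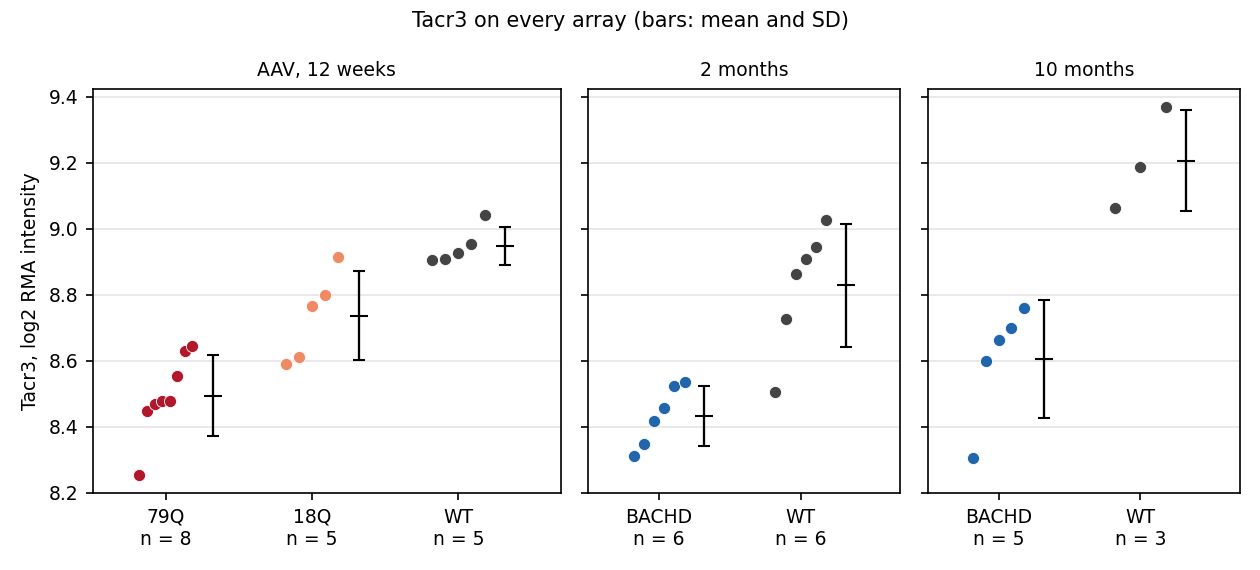
Each point is the log2 RMA intensity of Tacr3 (vertical axis) on the array of 1 mouse, sorted by value within its group, for 79Q, 18Q and WT (left), BACHD and WT at 2 months (middle) and BACHD and WT at 10 months (right). Bars give the mean and SD, and the 79Q and 10-month BACHD points all lie below their WT points, whereas the 2-month groups meet at the WT array at 8.51.

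Ordered by log2 fold change from the lowest among 19937 named genes, Tacr3 stood at position 12 where 79Q was set against WT, 236 where 18Q was set against WT, 117 for 79Q against 18Q, 42 for BACHD at 2 months and 1 for BACHD at 10 months. It was the only named gene at or below a log2 fold change of -0.25 in all of 79Q vs. WT and BACHD vs. WT at 2 and 10 months, contrasts that share no array. At a limit of -0.2 a second gene, the olfactory receptor gene Olfr172, came in, with -0.24 in 79Q vs. WT, -0.37 at 2 months and -0.28 at 10 months. These positions follow from the values by which Tacr3 was chosen.

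**Figure D2:**
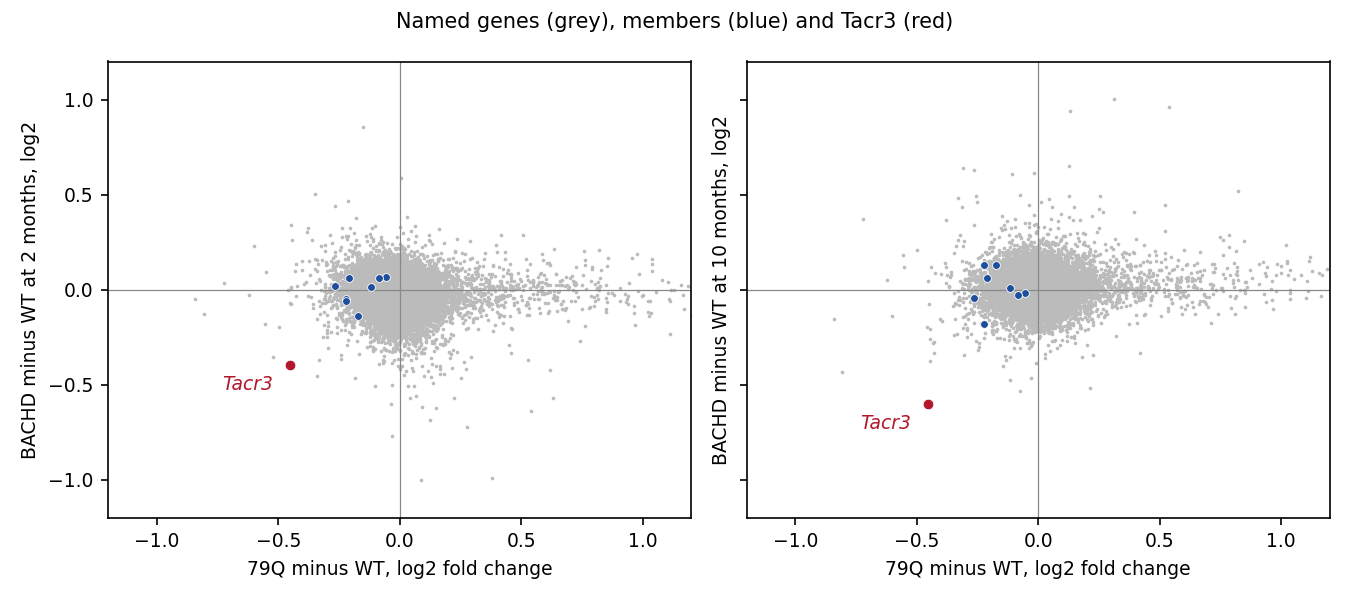
The log2 fold change in 79Q minus WT (horizontal axis) is plotted against that in BACHD minus WT (vertical axis) at 2 months (left) and 10 months (right), with each of 19937 named genes in grey, the 8 other members in blue and Tacr3 in red; 76 genes lie beyond the axis limit of 1.2 in at least 1 of the 3 contrasts. Tacr3 sits apart at the lower left in both panels, at -0.45 on the horizontal axis and at -0.40 and -0.60 on the vertical axes, while the other members lie within the grey cloud.

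The other 8 members were tested in each of the 5 comparisons, 40 tests in all, by limma with Benjamini-Hochberg adjustment over all 34760 probe sets (a gene is called where the adjusted p is under 0.05). None was called in any comparison. In 79Q vs. WT, where 2.07% of probe sets were called, the smallest adjusted p among the 8 was 0.0951 (limma). In 18Q vs. WT 2.11% of probe sets were called and the smallest adjusted p was 0.268 (limma). In 79Q vs. 18Q and in BACHD vs. WT at either age, 0% of probe sets were called at all. At an unadjusted p under 0.05 limma picked 4 of the 8 when 79Q was compared with WT (14% of probe sets), 1 (Pgr) for 18Q against WT (12.6%), 1 (Tac1) between the injected groups (4.24%), 0 for BACHD at 2 months (4.09%) and 1 (Tac1) for BACHD at 10 months (4.55%).

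All 8 other members had a log2 fold change below 0 in 79Q vs. WT, with a median of -0.19, where 57.8% of all probe sets were below 0. Against WT, 18Q had 7 of 8 below 0 (55% of probe sets), with a median of -0.08. Against 18Q, 79Q had 6 of 8 were below 0 (54.6%). In BACHD vs. WT the members lay on either side of 0, with 3 of 8 below it at 2 months (65.7% of probe sets) and 4 of 8 at 10 months (46.1%), and the medians were 0.02 and -0.01.

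**Figure D3:**
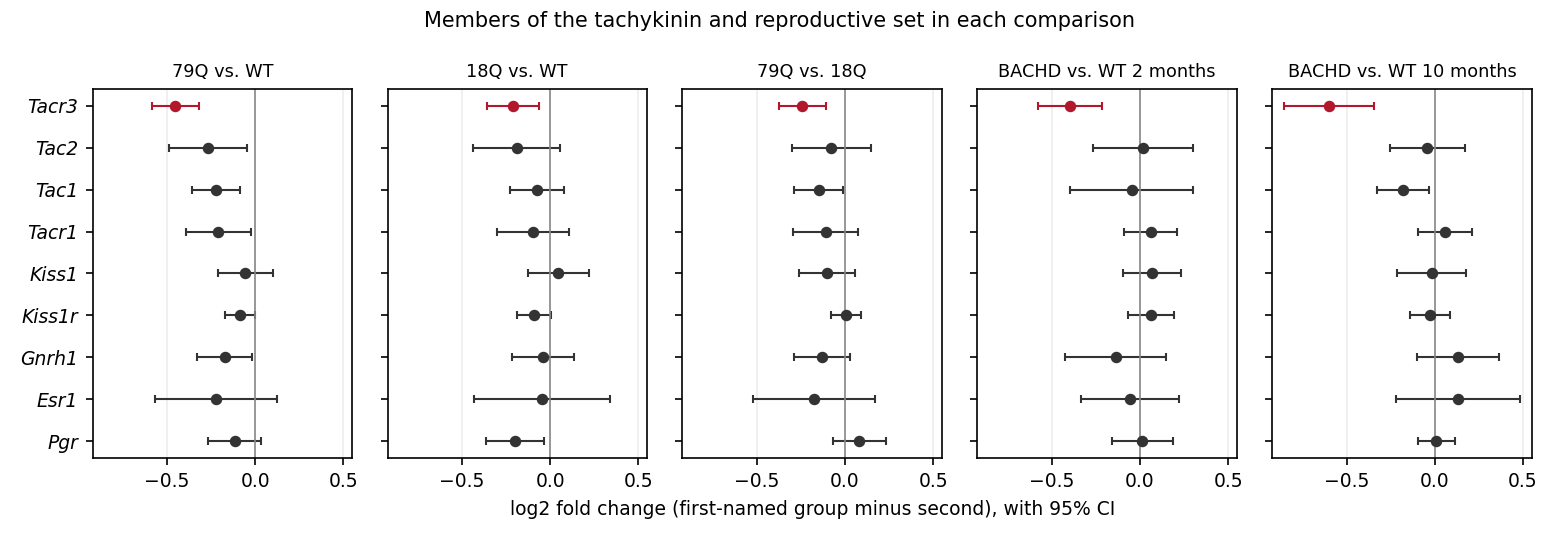
Points give the log2 fold change (horizontal axis, the first-named group minus the second) and bars the 95% CI of limma for the 9 measured members (rows) in the 5 comparisons (panels), with Tacr3 in red. Tacr3 lies below 0 in every panel, from -0.21 in 18Q vs. WT to -0.60 in BACHD vs. WT at 10 months, and the other members of BACHD vs. WT stay between -0.18 and 0.13. The intervals of Tacr3 are a description and not a test, since it was chosen by its values on these arrays.

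Tac2, which encodes neurokinin B, the ligand of NK3R, was among the brighter genes of the array. It measured 10.54, 10.61, 10.76, 10.78, 10.94, 10.75, 10.75 and 10.58 in 79Q, against 10.92, 11.00, 10.92, 11.02 and 11.04 in WT, so that 7 of 8 arrays of 79Q lay below the lowest WT array. This gave a log2 fold change of -0.27 (SE 0.11, limma adjusted p = 0.246, exact permutation p = 0.00466, two-sided). The exact permutation p here and below is not adjusted over the 40 tests and makes no call. When only these 2 groups were fitted, without the widely spread 18Q arrays, the adjusted p of limma was 0.0353, and over the 22 alternatives it ran between this value and 0.976. In 18Q Tac2 spread between 10.27 and 11.16, around a mean of 10.79 ± 0.34, with a log2 fold change of -0.19 against WT (SE 0.12, limma adjusted p = 0.561).

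Neither age of BACHD showed the ligand lower beyond its spread. Tac2 averaged 10.88 ± 0.29 in BACHD and 10.86 ± 0.20 in WT at 2 months (SD, n = 6 each), a log2 fold change of 0.02 (95% CI -0.27 to 0.30). At 10 months it averaged 11.43 ± 0.08 in BACHD and 11.47 ± 0.22 in WT (SD), a log2 fold change of -0.04 (95% CI -0.26 to 0.17). In the same comparisons the log2 fold changes of its receptor gene Tacr3 were -0.40 and -0.60.

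Tac1 encodes substance P and neurokinin A, and like Tac2 it was bright on all arrays. It measured 10.52, 10.37, 10.48, 10.41, 10.35, 10.30, 10.19 and 10.24 in 79Q, against 10.56, 10.60, 10.52, 10.69 and 10.53 in WT. The highest 79Q array (replicate 1) crossed just above the lowest WT array, and the other 7 were below it. The log2 fold change was -0.22 (SE 0.065, limma adjusted p = 0.0951, exact permutation p = 0.00311, two-sided), and over 22 alternatives the adjusted p ran from 0.0522 to 0.880 (limma). For 18Q vs. WT it was -0.07 (SE 0.072), and for 79Q vs. 18Q -0.15 (SE 0.065), with an unadjusted p of 0.0336 by limma and no call after adjustment.

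Tac1 was also the member besides Tacr3 with the lowest fold change in the older BACHD mice. At 10 months it measured 11.16, 11.17, 10.98, 11.26 and 11.13 in BACHD, against 11.33, 11.26 and 11.37 in WT, and the groups met at 11.26. Tac1 thus had a log2 fold change of -0.18 (SE 0.065), with a limma adjusted p of 0.997 and an exact permutation p of 0.0714 in a design whose smallest possible p is 0.0357. At 2 months the arrays spread widely, between 10.19 and 10.99 in BACHD and between 10.20 and 10.88 in WT, and the log2 fold change was -0.05 (95% CI -0.40 to 0.30).

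Tacr1 encodes NK1R, the receptor of substance P. It measured 9.03, 9.22, 9.19, 9.16, 8.95, 8.93, 8.83 and 8.72 in 79Q, against 9.13, 9.33, 9.12, 9.23 and 9.26 in WT. A group of 3 arrays of 79Q lay inside the WT range and 5 below it, and the log2 fold change was -0.21 (SE 0.087, limma adjusted p = 0.278, exact permutation p = 0.0311, two-sided). In BACHD vs. WT, Tacr1 differed by 0.06 at 2 months (95% CI -0.09 to 0.21) and by 0.06 at 10 months (95% CI -0.09 to 0.21). The point estimates of Tacr3 were lower than these intervals, and nothing is read from this since both contrasts were used to choose Tacr3.

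The tachykinin list of 6 genes adds Tac4, the precursor of hemokinin, and Tacr2, the neurokinin A receptor NK2R, and it has 5 genes when Tacr3 is left out. None of the 5 was called in any comparison. Their median log2 fold change was -0.21 in 79Q vs. WT and -0.07 in 18Q vs. WT, and the medians of all probe sets in these comparisons were -0.02 and -0.01. In BACHD vs. WT it was -0.05 at 2 months and -0.01 at 10 months, beside -0.03 and 0.01 for all probe sets.

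Kiss1, which encodes kisspeptin, had a level near the middle of the array (percentile 51.0), and the files give no call of detection above background. Its values ran from 7.26 to 7.64 in 79Q (median 7.34) and were 7.60, 7.29, 7.39, 7.61 and 7.65 in 18Q, against 7.54, 7.46, 7.52, 7.38 and 7.41 in WT. The groups overlapped fully. Its log2 fold changes were -0.06 in 79Q vs. WT (95% CI -0.21 to 0.10), 0.05 in 18Q vs. WT (95% CI -0.13 to 0.22), 0.07 in BACHD vs. WT at 2 months (95% CI -0.10 to 0.23) and -0.02 at 10 months (95% CI -0.21 to 0.18).

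Kiss1r encodes the kisspeptin receptor, through which GnRH neurons are driven. Its spread between arrays was small, with means of 8.28 ± 0.07 in 79Q, 8.28 ± 0.06 in 18Q and 8.37 ± 0.06 in WT (SD). The log2 fold change was -0.09 in 79Q vs. WT (exact permutation p = 0.0435, limma adjusted p = 0.366) and -0.09 in 18Q vs. WT (exact permutation p = 0.0476, limma adjusted p = 0.423). Between 79Q and 18Q it was 0.01 (95% CI -0.08 to 0.09). BACHD differed from WT by 0.06 at 2 months and by -0.03 at 10 months.

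Gnrh1, the precursor of GnRH, is made by few and scattered neurons, and it was at percentile 49.5 of the array. It measured 7.52, 7.61, 7.34, 7.44, 7.45, 7.28, 7.31 and 7.10 in 79Q, against 7.41, 7.60, 7.49, 7.70 and 7.57 in WT, and 4 of the 8 arrays of 79Q were below the lowest WT array. Its log2 fold change was -0.17 (SE 0.075, limma adjusted p = 0.297, exact permutation p = 0.0528, two-sided). The value for 18Q vs. WT was -0.04 (95% CI -0.22 to 0.13). BACHD differed from WT by -0.14 at 2 months (95% CI -0.42 to 0.15) and 0.13 at 10 months (95% CI -0.10 to 0.36), and the change of the genotype effect with age, 0.27, had an interval from -0.13 to 0.67.

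Esr1 encodes estrogen receptor alpha, which KNDy neurons carry. It varied more between arrays than any other member in the AAV experiment, with an SD of 0.23 in 79Q, 0.49 in 18Q and 0.18 in WT. The log2 fold change was -0.22 in 79Q vs. WT (95% CI -0.57 to 0.12) and -0.05 in 18Q vs. WT (95% CI -0.43 to 0.34). A single 18Q array (replicate 3) stood at 7.57, whereas the other 18Q arrays stood between 8.29 and 8.90. The same array had the lowest 18Q value of Tac2 (10.27) and the highest 18Q value of Tacr3 (8.91). Its summed log2 marker levels were the highest of 18Q for thalamus (12.60) and pituitary (12.41) and the lowest for hypothalamus (13.73). The part of tissue content in these values was not tested. Between BACHD and WT, Esr1 differed by -0.06 at 2 months (95% CI -0.34 to 0.22) and by 0.13 at 10 months (95% CI -0.22 to 0.48).

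Pgr, the progesterone receptor gene, which estrogen induces in the hypothalamus, measured 8.54, 8.52, 8.28, 8.70 and 8.52 in 18Q, against 8.76, 8.86, 8.52, 8.83 and 8.59 in WT. All 5 arrays of 18Q were below the WT mean and 3 below the lowest WT array. Its log2 fold change was -0.20 in 18Q vs. WT (SE 0.078, limma adjusted p = 0.268, exact permutation p = 0.0556, two-sided) and -0.12 in 79Q vs. WT (SE 0.071, limma adjusted p = 0.502). BACHD mice differed from WT by 0.01 at 2 months (95% CI -0.16 to 0.19) and 0.01 at 10 months (95% CI -0.10 to 0.11).

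**Figure D4:**
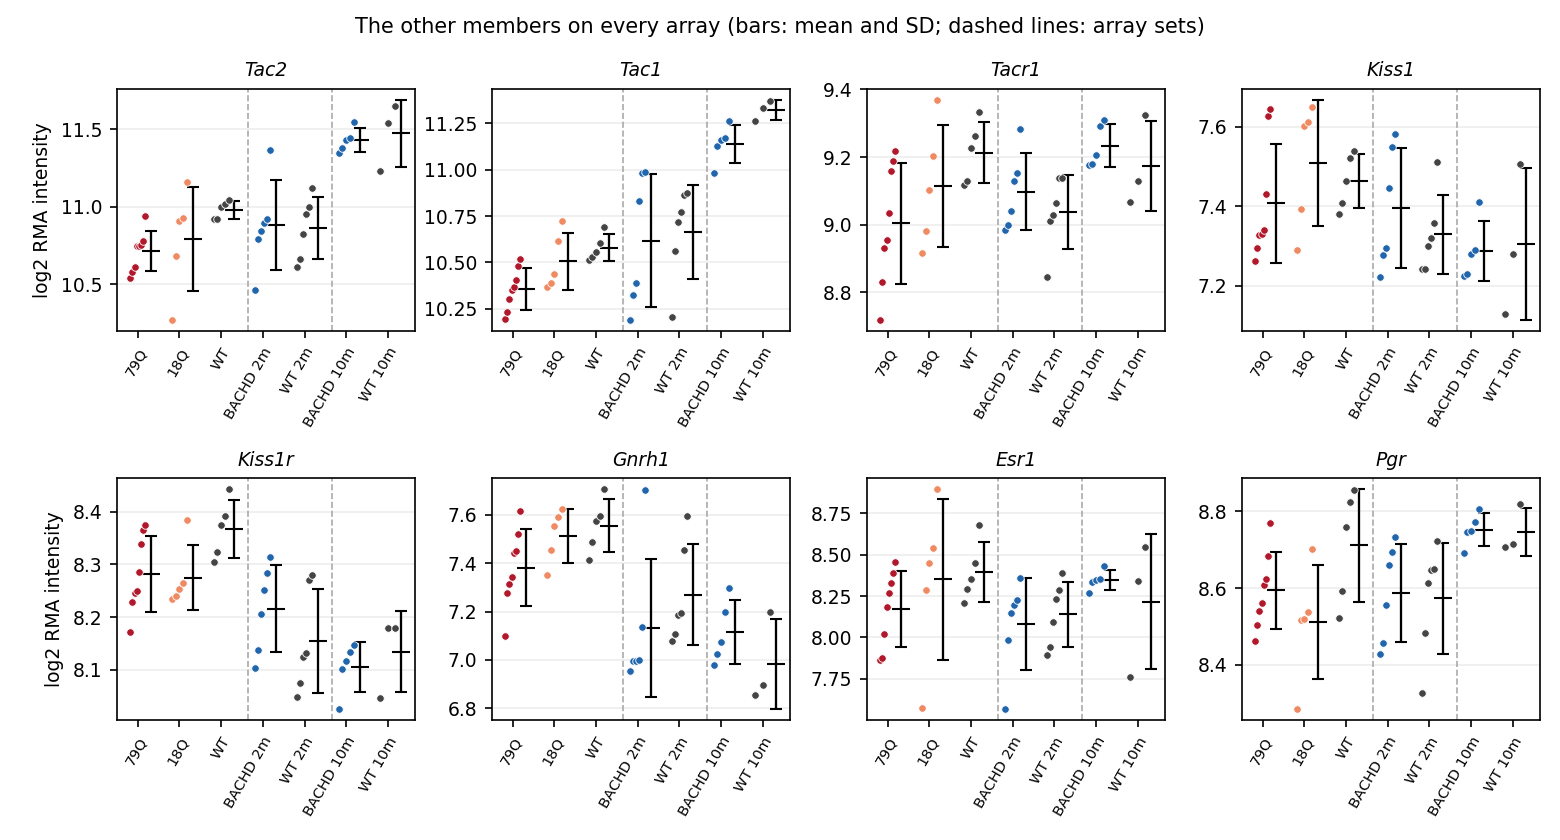
Each panel shows the log2 RMA intensity (vertical axis, scaled per gene) of 1 member on every array, with the mean and SD as bars, for 79Q, 18Q and WT of the AAV experiment and for BACHD and WT at 2 and 10 months; dashed lines part sets of arrays between which levels cannot be compared. In every panel the arrays of each injected or transgenic group overlap those of its WT group. Below the lowest WT point lie 7 of 8 79Q points of Tac1 and of Tac2, 4 of 5 18Q points of Kiss1r and 4 of 5 10-month BACHD points of Tac1.

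Cell markers moved with some of these differences. In 79Q all 9 measured hypothalamic markers had a log2 fold change below 0 against WT (57.8% of probe sets), with none called. The values included -0.62 for Trh, -0.43 for Hcrt and -0.30 for Pmch, but -0.14 for Sim1, -0.06 for Rax and -0.005 for Nkx2-1. Their summed log2 level ran from 13.48 to 14.15 in 79Q, against 14.21 to 14.37 in WT. Hcrt, among the brightest of them, was itself reported lower in 79Q by qRT-PCR, so this level does not measure tissue content alone. In 18Q the markers were below 0 as well, 9 of 9 (55% of probe sets), with a level from 13.73 to 14.39. With that level as a covariate, an alternative chosen after the data were seen, the log2 fold change in 79Q vs. WT was -0.38 for Tacr3 (SE 0.081), -0.13 for Tac1 (SE 0.080), -0.06 for Tac2 (SE 0.12), -0.06 for Tacr1 (SE 0.10), -0.11 for Gnrh1 (SE 0.097) and 0.19 for Esr1 (SE 0.15). In bulk tissue, fewer cells of a type and less RNA per cell cannot be told apart.

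Microglial markers were higher in both injected groups, with 4 of 6 called in 79Q (2.07% of probe sets) and 4 of 6 in 18Q (2.11%). Among these, C1qa, a complement gene, had log2 fold changes of 1.46 in 79Q and 1.59 in 18Q against WT (limma adjusted p = 8.92e-05 and adjusted p = 9.35e-05). Of 4 astrocyte markers none was called in 79Q vs. WT and 2 were in 18Q vs. WT (Gfap at 0.77 and Aqp4 at 0.52). Of 8 neuronal markers, 0 were called in 79Q and 1 in 18Q (Eno2, with -0.14), and their summed level ran from 15.19 to 15.29 in 79Q and from 15.19 to 15.25 in 18Q, against 15.27 to 15.34 in WT. The part of glial and neuronal markers in the values of Tacr3 was not tested.

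Markers of neighboring tissue differed between arrays in the AAV and the BACHD sets. In the AAV experiment the summed log2 thalamic level was 11.96 to 12.53 in 79Q and 12.03 to 12.60 in 18Q, against 12.04 to 12.32 in WT. Replicates 6, 7 and 8 of 79Q (12.53, 12.39 and 12.47) were above every WT array. They were together the lowest 79Q arrays for Tac1, Tacr1, Gnrh1 and Esr1, but not for Tacr3, Tac2, Kiss1, Kiss1r or Pgr. The part of tissue content in these values was not tested. All 10 thalamic markers were below 0 in BACHD vs. WT at 2 months (median -0.28) and all 10 above 0 at 10 months (median 0.29), with none called. Their summed log2 level at 2 months was 12.00 to 13.74 on BACHD arrays, against 12.18 to 13.68 on WT arrays, and at 10 months 12.37 to 13.14 on BACHD arrays, against 12.10 to 12.64 on WT arrays. With the thalamic level as a covariate the log2 fold change of Tacr3 was -0.39 (SE 0.088) at 2 months and -0.52 (SE 0.12) at 10 months, and with the pituitary level it was -0.41 (SE 0.081) and -0.57 (SE 0.12). Choroid plexus markers were below 0 in BACHD vs. WT in 6 of 6 at 2 months (median -0.34, summed level 9.97 to 11.45 in BACHD and 10.25 to 14.07 in WT) and in 3 of 6 at 10 months, and neither these nor the oligodendrocyte (5) and striatal or cortical (3) markers measured held a call in any comparison.

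**Figure D5:**
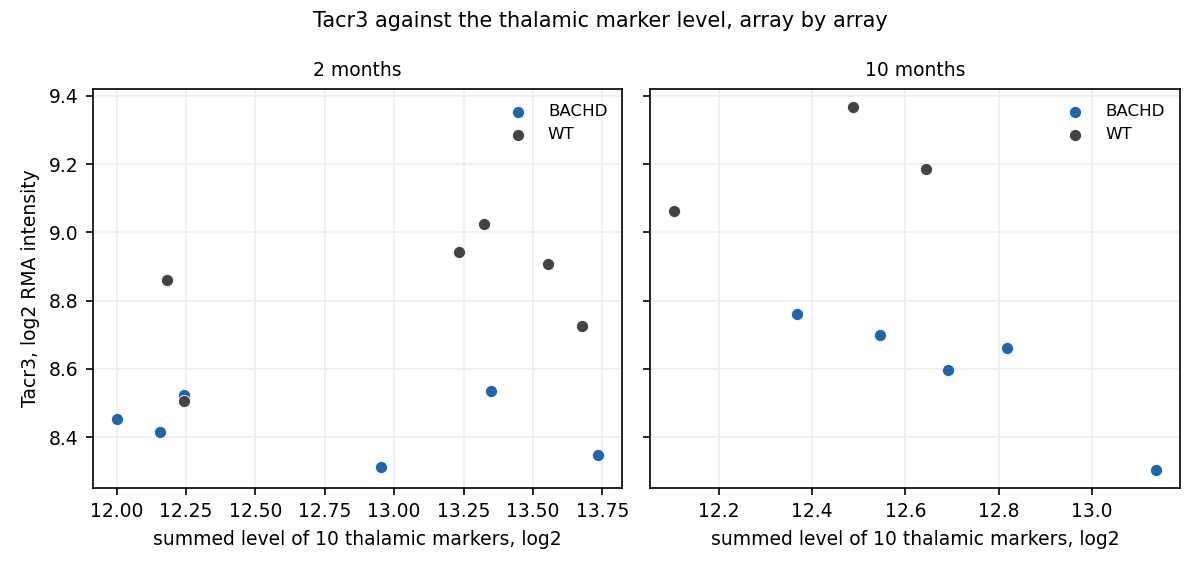
Each point is 1 array, with the log2 summed level of 10 thalamic marker genes on the horizontal axis and the log2 RMA intensity of Tacr3 on the vertical axis, at 2 months (left) and 10 months (right), BACHD in blue and WT in dark grey. At 10 months every BACHD point lies under every WT point, with thalamic levels of 12.37 to 13.14 in BACHD and 12.10 to 12.64 in WT that overlap only in part, and at 2 months the WT array at 8.51 lies level with the highest BACHD arrays.

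The other genes of the KNDy circuit did not pass the test. Of 12 listed genes 10 were analysed here, and of the 9 left without Tacr3 none was called in any comparison. In 79Q vs. WT all 9 were below 0, and Pdyn, which encodes the opioid peptide precursor of dynorphin, had a log2 fold change of -0.31 (SE 0.094, limma adjusted p = 0.118). In 18Q vs. WT, the smallest p belonged to Nhlh2, a transcription factor gene needed for normal fertility in mice, with -0.21 (limma adjusted p = 0.155). In BACHD vs. WT only 2 of 9 were below 0 at 2 months, with Pdyn at 0.15 and Oprk1, the gene of the dynorphin receptor, at -0.12, and 5 of 9 at 10 months, with Esr1 at 0.13 and Oprk1 at 0.04.

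Of 21 genes tied to the development of GnRH neurons or to puberty, 3 calls were made, 2 for 79Q against WT (where 2.07% of probe sets were called) and 1 for 18Q against WT (2.11%). In 79Q vs. WT, Flrt3, a membrane protein gene of the fibroblast growth factor pathway, fell by 0.25 (SE 0.047, limma adjusted p = 0.00601) and Chd7, a chromatin remodeler gene, rose by 0.24 (limma adjusted p = 0.0286). In 18Q vs. WT, Dusp6, which encodes a phosphatase of ERK, rose by 0.32 (limma adjusted p = 0.0315). Each had the same direction, uncalled, in the other injected group. In 18Q vs. WT Flrt3 had -0.18 (limma adjusted p = 0.108) and Chd7 0.23 (limma adjusted p = 0.0623), and in 79Q vs. WT Dusp6 had 0.25 (limma adjusted p = 0.0737). None of the list was called between 79Q and 18Q. The medians of the list were -0.06 in 79Q vs. WT and 0.01 in 18Q vs. WT. None of the 21 was called in BACHD vs. WT, where the medians were 0.01 at 2 months and 0.04 at 10 months.

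Among 8 RFamide peptides and receptors none was called, and 7 of the 8 were below 0 in 79Q vs. WT (median -0.09). Npvf, which encodes the gonadotropin-inhibitory RFRP peptides, had the largest values, with log2 fold changes of -0.45 in 79Q vs. WT (SE 0.13, limma adjusted p = 0.0858), 0.34 in BACHD vs. WT at 2 months (limma adjusted p = 0.939) and -0.38 at 10 months (limma adjusted p = 0.997). Prlhr, the receptor gene of prolactin-releasing peptide, had -0.22 in 79Q vs. WT (limma adjusted p = 0.138). In 18Q vs. WT the values were -0.13 for Prlhr and -0.22 for Npvf.

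The genes that act beside or after the receptors were likewise without a call in any comparison, and their medians in 79Q vs. WT ran from -0.06 for peptide processing to -0.01 for steroid receptors. Of 12 measured steroid receptor and cofactor genes (15 listed), Ncoa3, a coactivator gene, had 0.15 in 79Q vs. WT (limma adjusted p = 0.168), and Nr3c1, the glucocorticoid receptor gene, had 0.19 in BACHD vs. WT at 10 months (limma adjusted p = 0.997). Of 9 measured genes of prolactin signaling, Stat3 had 0.16 in 79Q vs. WT (limma adjusted p = 0.203) and 0.23 in 18Q vs. WT (limma adjusted p = 0.0824). Of 8 measured genes of Gq signaling, through which NK3R acts, the phospholipase gene Plcb2 had 0.35 in 79Q vs. WT (limma adjusted p = 0.0917) and 0.42 in 18Q vs. WT (limma adjusted p = 0.0707). In 79Q vs. WT 4 of these 8 were below 0 (57.8% of probe sets), among them Plcb1 at -0.10 and Gnaq at -0.06. Of 9 measured genes of peptide processing, Ece2, a peptidase gene, had -0.16 in 79Q vs. WT (limma adjusted p = 0.109) and Pcsk1, a prohormone convertase gene, had -0.18 (limma adjusted p = 0.128).

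Pituitary hormone genes varied widely from array to array, with the log2 intensity of Prl, the prolactin gene, between 5.15 and 13.58 at 2 months. Of 8 genes of gonadotropes and their neighbors none was called in any comparison, and Prl had a log2 fold change of 1.50 in 79Q vs. WT (SE 0.95) and of 3.13 in 18Q vs. WT (SE 1.06, limma adjusted p = 0.171). Gnrhr, the GnRH receptor gene, had -0.31 at 2 months (SE 0.25) and 0.12 at 10 months (SE 0.070) in BACHD vs. WT. Cga, which encodes the alpha subunit of the glycoprotein hormones, had -0.35 (SE 0.70) and 1.66 (SE 0.90, limma adjusted p = 0.997) at these ages. Of the 8 genes, 7 were below 0 at 2 months (65.7% of probe sets) and 0 at 10 months (46.1%), with medians of -0.25 and 0.15. The part of pituitary tissue in these values was not tested.

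The genes most like Tacr3 were sought among 9968 named genes with a mean at or above the median, by Pearson's r over the 38 arrays, which share dissection and normalization within each set. After each set of arrays was centred on its mean, so that group differences stay in, the highest were Ufsp1 (r = 0.67), Sv2c (0.65), Vps45 (0.63), Ache (0.62) and Btbd10 (0.62). Sv2c encodes a synaptic vesicle protein, Ache acetylcholinesterase and Vps45 a protein of vesicle traffic. Sv2c had a log2 fold change of -0.46 in 79Q vs. WT, close to the -0.45 of Tacr3, yet 0.00 in BACHD vs. WT at 2 months and -0.20 at 10 months. Of the members, Tac1 had r = 0.48 with Tacr3 (position 191) and Tac2 had r = 0.16 (position 4784).

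With each group centred on its own mean, so that only the differences between mice of a group remain, the highest were Fbxo11 (r = 0.74), Emb (0.71), Kif3a (0.69), Clock (0.69) and Zdhhc20 (0.69). No gene stood among the first 5 of both orders. The values of Tac1 were r = 0.35, of Tac2 -0.10 and of Esr1 -0.16. Within groups Tacr3 had a slightly negative correlation with its ligand gene over these 38 arrays, and such correlations are given as descriptions only.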

How the data were processed

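RNA from the hypothalamus of 38 female mice was hybridized to Affymetrix Mouse Gene ST 1.0 arrays. The authors turned the raw files into the deposited log2 intensities by RMA, which corrects background, makes the arrays' distributions equal and summarizes probes by median polish (R 4.1.1, affy 1.70.0), and tested them with limma 3.48.3, after leaving out samples with a low RNA integrity number. The arrays of the AAV experiment, of 2 months and of 10 months share identical values only within each set (0 across sets), so they were taken as normalized separately and no level was compared between sets. Array medians lay between 7.16 and 7.46, and how many mice there were per group sets the precision. The labels give no culture or litter beyond 1 mouse per array.

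All 34760 probe sets were tested with limma 3.58.1 in R 4.3.3 (lmFit, contrasts.fit, eBayes; Benjamini-Hochberg adjustment over all of them), with the 18 AAV arrays in 1 fit and each BACHD age alone. Exact two-sided permutation tests used scipy 1.17.1, without adjustment. Names came from the platform table: 21640 probe sets have 1 symbol, 1321 several and 11799 none listed here. The fit was tested on simulated data. The members and the 18 gene lists (9 pathway lists, 9 marker lists) were chosen with earlier results of these data known. Named were every member and the called genes of the lists, though of the microglial markers only C1qa. In lists without a call some genes with a small p were named, not the smallest in every comparison. The 5 genes most like Tacr3 in each of 2 orders were also named. Alternatives were another filter, array centring, a variance trend, array weights, marker levels as covariates, a replicate block, other samples in the fit and leaving out each array.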

Additional observations from a re-analysis of the deposited data

Results flagged for a closer look

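Of 54 pairs of a gene and a group with 4 to 10 arrays, 2 had an array far from the others by Dixon's criterion, which chance meets in about 1 of 20 groups. The Kiss1r value of 18Q replicate 6 was 8.38, whereas the other 18Q arrays lay between 8.23 and 8.26, and it fell inside the WT range of that experiment. The Gnrh1 value of BACHD replicate 5 at 2 months was 7.70, whereas the other BACHD arrays of that age lay between 6.95 and 7.14, and it was above the highest WT array of that age (7.59). Neither gene was called in any comparison. No Tacr3 array was marked in this way.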

How the results depend on the processing

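Tacr3 was chosen for its decrease in 79Q and BACHD mice, and the 18Q comparisons share arrays with 79Q vs. WT. Its direction under refits was therefore largely set in advance. Tacr3 kept its direction in all 5 comparisons under every alternative in which it was refitted. Leaving out each array in turn, its log2 fold change ran from -0.47 to -0.42 in 79Q vs. WT, from -0.26 to -0.18 in 18Q vs. WT, from -0.28 to -0.20 in 79Q vs. 18Q, from -0.46 to -0.36 in BACHD vs. WT at 2 months and from -0.67 to -0.52 at 10 months. Under the other alternatives the ranges were -0.49 to -0.38, -0.30 to -0.18, -0.24 to -0.20, -0.41 to -0.35 and -0.68 to -0.52 in the same order. Of 805 refits of the 8 other members, 801 stayed within 1 SD of the value reported and uncalled, 1 became a call (Tac2 in 79Q vs. WT with only the 2 groups compared) and 3 moved further, all in 79Q vs. WT with the hypothalamic marker level as a covariate. A refit within 1 SD could still change sign, as for Esr1 in 18Q vs. WT, which ran from -0.18 to 0.17 over its refits. The number of members called was thus 1 in that 2-group fit and 0 in all others. The number of probe sets called in 79Q vs. WT (721) was 1092 with array weights, 402 with the replicate block, 121 with the hypothalamic level as a covariate, 439 without WT replicate 5, 476 without WT replicate 2, and between 439 and 811 over all arrays left out. That of 18Q vs. WT (735) was 363 with the pituitary level as a covariate, 472 without 18Q replicate 4 and 1129 without 18Q replicate 6, which are also the lowest and highest values over the arrays left out. In 79Q vs. 18Q it was 1 with the pituitary level as a covariate and 0 to 1 over the arrays left out. The cause of these shifts was not tested. Arrays of the same replicate number did not deviate together (r from -0.31 to 0.28 over all pairs), so the numbers were not taken as pairs, and with the block the log2 fold change of Tacr3 was -0.49 in 79Q vs. WT and -0.68 in BACHD vs. WT at 10 months. The mean of several probe sets per gene could not be tried because each member has 1.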
